A study of Mus musculus with 15 samples.

Results

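The miR-221 and miR-222 cluster consists of a pair of neighbouring microRNA genes whose products were read here as 4 mature strands, mmu-miR-221-3p, mmu-miR-221-5p, mmu-miR-222-3p and mmu-miR-222-5p, written below without the species prefix. They were chosen by name, as every entry of the deposited table that begins with either miRNA's name, and make up 4 of 1424 mature miRNAs. All 4 are among the 818 that passed the filter on low values and were tested. The data are small RNA libraries from whole lungs of C57BL/6 mice, taken 7 days after 1 intratracheal dose of 100 uL. The sample labels give an age of 11 weeks for every library, and the treatment protocol an age of 8 to 12 weeks at dosing. The 4 groups were R213G and WT mice, each given bleomycin at 1 U/mL or phosphate-buffered saline (PBS). In R213G there were n = 4 libraries after bleomycin and n = 4 after PBS, and in WT n = 4 and n = 3. Here n counts libraries, since the labels do not say that each is a separate mouse. R213G mice are homozygous for a variant of extracellular superoxide dismutase (EC-SOD), the antioxidant enzyme of the extracellular space. Bleomycin breaks DNA and is given to animals to produce lung injury. Both sexes were used, which mouse was of which sex is not stated in the labels, and the cluster lies on the X chromosome. Small RNA holds no reading of EC-SOD, so the genotype labels could not be checked.

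As background, both miRNAs are cut from 1 primary transcript, and in each hairpin the 3p strand is the guide that is mostly loaded into Argonaute, while the 5p strand is the passenger. The guides are best known for repressing the cell-cycle inhibitor Cdkn1b (p27), and with it for promoting the division of vascular smooth muscle and tumour cells. In endothelial cells they repress the receptor Kit, and in human cancer cells their transcription is induced by NF-kB and c-Jun.

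RefSeq holds a mature sequence for 3 of the 4 members (GRCm38.p6). They are shown because the guides share a seed and the passenger does not. The capitals mark the seed, bases 2 to 8 from the 5′ end.
miR-221-3p: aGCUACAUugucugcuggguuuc
miR-222-3p: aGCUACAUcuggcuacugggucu
miR-221-5p: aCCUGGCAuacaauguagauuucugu
Both guides are 23 bases long. Their first 8 bases are identical, and without gaps 11 of the 23 positions match, with the first difference at position 9. Of 1679 mature names in the RefSeq table, 3 carry this seed. The third is miR-1928, which is not analysed here. The seed of miR-221-5p is carried by 1 name, its own.

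Both hairpins lie on the minus strand of the X chromosome, miR-222 at chrX:19146893-19146971 and miR-221 at chrX:19146294-19146388, with 504 bases between them. In transcription order miR-222 comes first. GENCODE M21 has each as a miRNA gene of its own. The hairpins are given below with the RefSeq mature strands in capitals, since the results turn on which arm of a hairpin is read.
Mir222 hairpin: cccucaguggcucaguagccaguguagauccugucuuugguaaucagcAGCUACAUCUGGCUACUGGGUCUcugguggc
Mir221 hairpin: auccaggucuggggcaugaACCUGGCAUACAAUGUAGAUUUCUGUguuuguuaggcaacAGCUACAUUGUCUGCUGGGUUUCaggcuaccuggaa

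Values below were taken as levels on the scale log2 of 1 plus an equalized count, that is, a read count that the authors adjusted between libraries. No source states this scale, and the authors' name for the data mentions RPKM, a unit divided by length. Whether the values were so divided is unknown, which bears on sums, shares and ratios of strands of unlike length. In every library the order was miR-221-3p, miR-222-3p, miR-221-5p and miR-222-5p. The guide miR-221-3p lay between 14.04 and 15.10 and ranked 63 to 81 among the miRNAs of a library. The guide miR-222-3p lay between 13.34 and 13.99, at rank 80 to 92. The passenger miR-221-5p lay between 9.59 and 10.45, at rank 178 to 226, and miR-222-5p between 6.40 and 7.55, at rank 320 to 391. Together the 4 strands made up 0.135% to 0.240% of a library's summed equalized counts, which ran from 18087288 to 24759614. All 4 strands were thus well above the filter in every group, with the guides far above their passengers.

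**Figure D1:**
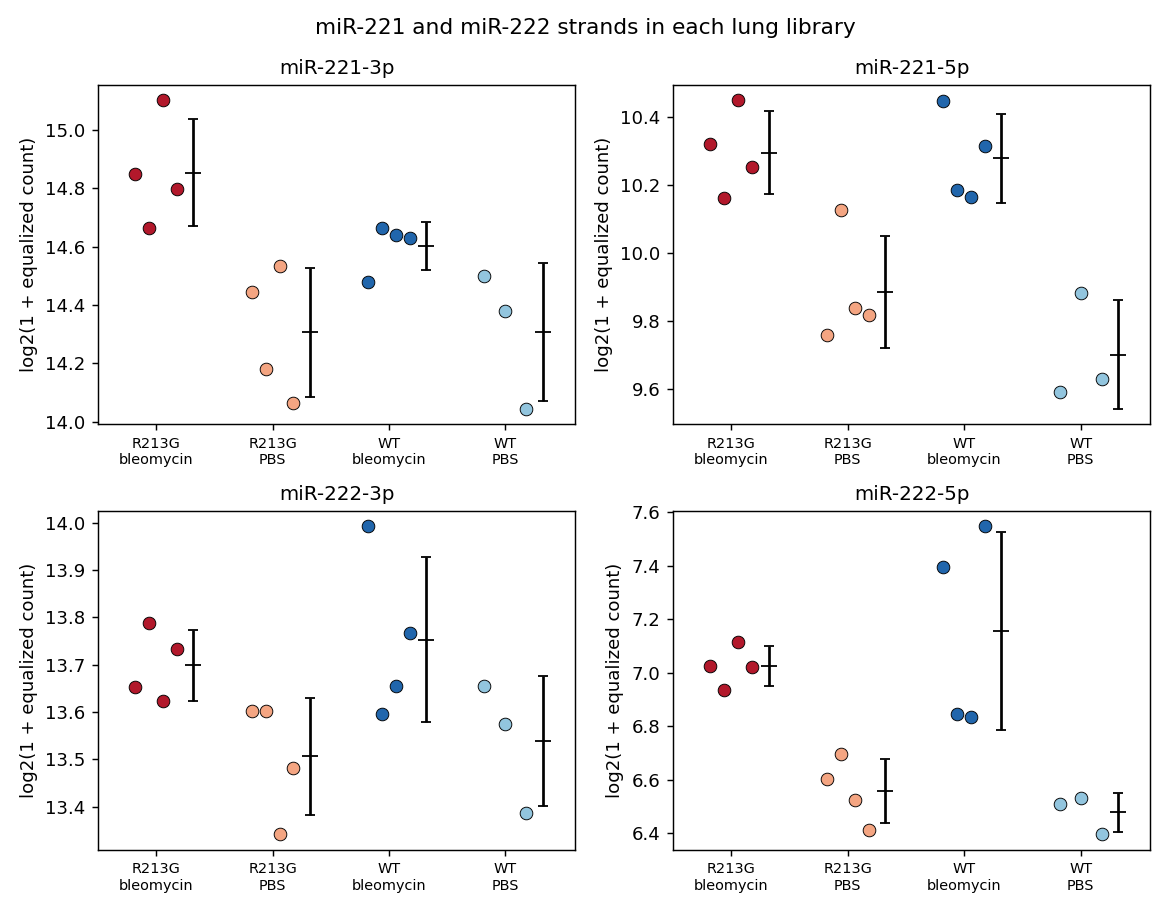
Level of each strand in every library, as log2 of 1 plus the equalized count, with points for libraries and a bar for the group mean ± SD. In R213G lungs all 4 bleomycin points lie above all 4 PBS points for each strand, and in WT lungs this holds for the 5p strands.

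Bleomycin against PBS asks how the cluster differs 7 days into lung injury. Within R213G mice miR-221-3p, miR-221-5p and miR-222-5p rose by 1.33-fold to 1.46-fold, while the miR-222-3p difference did not pass. Within WT mice the passengers miR-221-5p and miR-222-5p rose by 1.49-fold and 1.60-fold, and neither guide passed. Averaged over the genotypes all 4 strands rose, by 1.15-fold to 1.49-fold. Tests were made with limma over 818 miRNAs, and an adjusted p (Benjamini-Hochberg) under 0.05 was called.

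The guide miR-221-3p stood at 14.85, 14.66, 15.10 and 14.80 in R213G bleomycin lungs, against 14.44, 14.18, 14.53 and 14.06 in R213G PBS lungs. The groups did not overlap. The log2 difference was 0.55 ± 0.13 (SE), a 1.46-fold rise (95% confidence interval 1.22 to 1.76, limma adjusted p = 0.00247). In WT it stood at 14.48, 14.66, 14.64 and 14.63 after bleomycin, against 14.50, 14.38 and 14.04 after PBS. Here the groups overlapped, since WT bleomycin replicate 1 lay just below WT PBS replicate 1. The WT difference of 0.29 ± 0.14 (SE, limma adjusted p = 0.119) did not pass. It was 0.16 without WT PBS replicate 3, the lowest library, and it passed with quantile normalization (0.46, limma adjusted p = 0.0253).

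Its passenger miR-221-5p stood at 10.32, 10.16, 10.45 and 10.25 in R213G bleomycin lungs, against 9.76, 10.13, 9.84 and 9.82 in R213G PBS lungs. R213G PBS replicate 2 came close to the bleomycin libraries without overlapping them. The log2 difference was 0.41 ± 0.11 (SE, limma adjusted p = 0.00894). In WT the strand stood at 10.45, 10.19, 10.16 and 10.32 after bleomycin, against 9.59, 9.88 and 9.63 after PBS. The WT groups stood clear of each other, with a log2 difference of 0.58 ± 0.12 (SE, limma adjusted p = 0.00236). The R213G call was lost with equal library medians (0.28, limma adjusted p = 0.101) and with quantile normalization (0.34, limma adjusted p = 0.0638).

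The guide miR-222-3p stood at 13.65, 13.79, 13.62 and 13.73 in R213G bleomycin lungs, against 13.60, 13.60, 13.34 and 13.48 in R213G PBS lungs. The groups did not overlap, but the gap between them was narrow, and the difference of 0.19 ± 0.10 (SE, limma adjusted p = 0.138) did not pass. In WT it stood at 13.99, 13.60, 13.66 and 13.77 after bleomycin, against 13.65, 13.58 and 13.39 after PBS. These groups overlapped, and the difference of 0.21 ± 0.11 (SE, limma adjusted p = 0.159) did not pass. Averaged over the genotypes the strand was higher by 0.20 ± 0.07 (SE, limma adjusted p = 0.0318), a 1.15-fold rise with a confidence interval of 1.03 to 1.28. That call was lost in 7 of 15 fits that left out 1 library, with 0.16 to 0.20 and adjusted p = 0.0516 to 0.0848. The 7 libraries were R213G bleomycin replicates 2 and 4, R213G PBS replicates 3 and 4, WT bleomycin replicates 1 and 4 and WT PBS replicate 3. It was lost too with equal library medians (0.078, adjusted p = 0.522), with quantile normalization (0.14, adjusted p = 0.203) and without the intensity trend (0.20, adjusted p = 0.0589).

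The scarcest strand, miR-222-5p, stood at 7.03, 6.93, 7.12 and 7.02 in R213G bleomycin lungs, against 6.60, 6.69, 6.53 and 6.41 in R213G PBS lungs. The log2 difference was 0.47 ± 0.16 (SE, limma adjusted p = 0.0266), and the groups did not overlap. In WT it stood at 7.40, 6.85, 6.83 and 7.55 after bleomycin, against 6.51, 6.53 and 6.40 after PBS. The WT bleomycin libraries fell into a higher pair and a lower pair, and all 4 lay above the PBS libraries. The WT difference was 0.68 ± 0.17 (SE, limma adjusted p = 0.00778). The R213G call was lost without R213G bleomycin replicate 1, 3 or 4 or R213G PBS replicate 3 or 4 (0.42 to 0.47, adjusted p = 0.0512 to 0.0774), with equal library medians (0.33, adjusted p = 0.137) and with quantile normalization (0.36, adjusted p = 0.0988). The WT call was lost with quantile normalization (0.50, adjusted p = 0.0522).

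These counts stand against a broad response to the drug. Of the 4 strands 3 rose in R213G, where 22.2% of the 818 tested miRNAs rose and 19.8% fell, 2 in WT, where 16.4% rose and 10.3% fell, and 4 in the averaged comparison, where 28.7% rose. All 4 strands had every R213G bleomycin library above every R213G PBS library, as did 21.9% of the tested miRNAs, and 2 did in WT, as did 18.7%. The strands come from 1 transcript, so these are not 4 separate results, and the averaged comparison uses the same libraries as the other pair. Scaling to equal library medians lowered the bleomycin differences by about 0.13 in R213G and 0.12 in WT. After that shift miR-221-3p was still higher in R213G (0.41, adjusted p = 0.0291), as were miR-221-5p (0.46, adjusted p = 0.0221) and miR-222-5p (0.56, adjusted p = 0.0344) in WT. In size the differences were modest. The largest in R213G, that of miR-221-3p, was above that of 73.3% of tested miRNAs, and the largest in WT, that of miR-222-5p, above that of 82.5%.

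**Figure D2:**
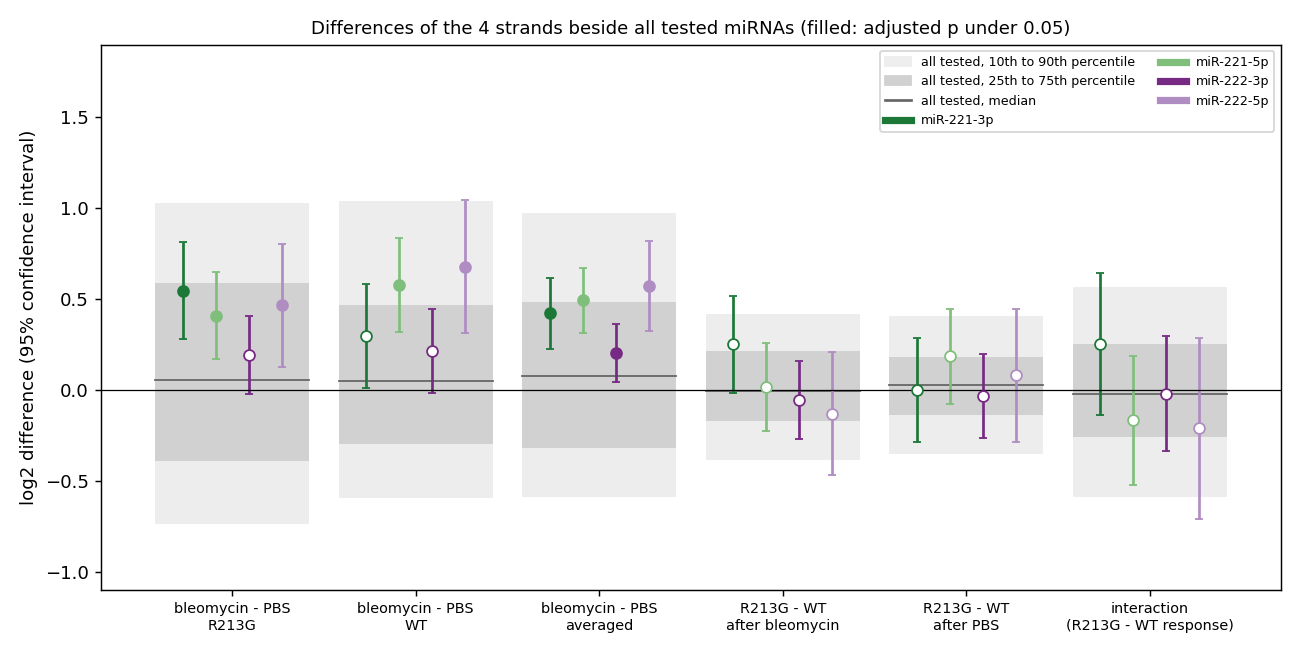
Log2 difference of each strand in the 6 comparisons, with its 95% confidence interval, over grey bands for all tested miRNAs. Filled points passed the test. In the bleomycin comparisons the strands lie between 0.19 and 0.68, and in the genotype comparisons and the interaction each interval includes 0.

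The authors' deposited table carries its own tests. In R213G its parametric q-value was 0.0219 for miR-222-5p, 0.0600 for miR-221-5p, 0.0636 for miR-221-3p and 0.169 for miR-222-3p. In WT the same column of the authors' deposited table ran from 0.127 for miR-221-5p to 0.461 for miR-221-3p. Under 0.05 the parametric q-value thus passed only miR-222-5p, in R213G. The authors' Wilcoxon q-value was 0.109 for each strand in R213G and 0.223 to 0.304 in WT, so no strand passed by it.

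Since the guides share their seed, their equalized counts were also summed. The sum was 42385, 40068, 47750 and 42080 in R213G bleomycin lungs, against 34727, 30995, 34084 and 28571 in R213G PBS lungs. In WT lungs it was 39132, 38300, 38398 and 39281 after bleomycin, against 36056, 33503 and 27616 after PBS. In each genotype every bleomycin lung held more of the summed guides than every PBS lung, as did 21.9% of single tested miRNAs in R213G and 18.7% in WT, and the WT bleomycin lungs lay close together. The sum was not tested, and miR-1928, which carries the seed too, is not in it. In WT the lowest bleomycin sum and the highest PBS sum were 15.23 and 15.14 in log2. Scaling to equal library medians lowered the WT bleomycin differences by about 0.12. Whether the WT order of the sums holds at that scaling was not tested. Of the sum, miR-221-3p supplied 68.9% ± 3.7 (SD, n = 4) in R213G bleomycin lungs and 63.4% ± 4.6 (SD, n = 4) in R213G PBS lungs. In WT the share was 64.2% ± 4.1 (SD, n = 4) after bleomycin and 63.0% ± 1.6 (SD, n = 3) after PBS.

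The ratio of the strands within a library asks whether guide and passenger moved together, and a factor applied to a whole library hardly changes it, as far as the 1 added to each count is small beside the count. For miR-222 the 3p strand lost ground to its 5p strand after bleomycin. The log2 ratio was 6.63, 6.85, 6.51 and 6.71 in R213G bleomycin lungs, against 6.998, 6.91, 6.82 and 7.07 in R213G PBS lungs. A single R213G bleomycin library, replicate 2, lay above a PBS library. In WT it was 6.60, 6.75, 6.82 and 6.22 after bleomycin, against 7.15, 7.04 and 6.99 after PBS, with no overlap. As geometric means of 1 plus the equalized count, the guide stood at 102 to 1 against the passenger in R213G bleomycin lungs and at 123 to 1 in R213G PBS lungs. In WT lungs these means were 96.8 to 1 after bleomycin and 133 to 1 after PBS.

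Averaged over the genotypes the log2 ratio of miR-222 fell by 0.37, with p = 0.00163 in a two-sided exact permutation test that permuted libraries within genotype (adjusted p = 0.0245 over 15 ratio tests). Leaving out each library gave -0.41 to -0.31. Within R213G alone the difference was -0.27 (exact permutation p = 0.0571, adjusted p = 0.214). Within WT it was -0.46 (exact permutation p = 0.0571, adjusted p = 0.214). For WT this is the smallest p that the permutation of 4 against 3 libraries allows. The WT test could therefore not pass whatever the difference, and no conclusion is drawn from it. In R213G the smallest exact permutation p is 0.0286, which was not reached, since the groups overlapped there. The ratio is a difference of the log2 values, with the 1 that is added to each count left in. It was not divided by length here, since the length of miR-222-5p was not at hand.

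For miR-221 the same ratio showed no common direction. It averaged 4.56 ± 0.07 (SD, n = 4) in R213G bleomycin lungs and 4.42 ± 0.32 (SD, n = 4) in R213G PBS lungs. In WT it averaged 4.32 ± 0.21 (SD, n = 4) after bleomycin and 4.61 ± 0.26 (SD, n = 3) after PBS. The averaged difference was -0.072 (exact permutation p = 0.605, adjusted p = 0.698). After bleomycin every R213G library lay above every WT library in this ratio, by 0.23 on average (exact permutation p = 0.0286, the smallest that 4 against 4 allow), but this did not pass adjustment (adjusted p = 0.214). Whether the bleomycin difference of miR-222 differs from that of miR-221 was not tested.

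The guides, both 23 bases long, can also be set against each other per length. The log2 ratio of miR-221-3p to miR-222-3p averaged 1.15 ± 0.25 (SD, n = 4) in R213G bleomycin lungs and 0.80 ± 0.29 (SD, n = 4) in R213G PBS lungs, a difference of 0.35 (exact permutation p = 0.114, adjusted p = 0.286). In WT it averaged 0.85 ± 0.26 (SD, n = 4) after bleomycin and 0.77 ± 0.10 (SD, n = 3) after PBS. That is a difference of 0.081 (exact permutation p = 0.6, adjusted p = 0.698). In all 15 libraries miR-221-3p was the more abundant guide, from 1.40 to 2.78 times miR-222-3p.

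**Figure D3:**
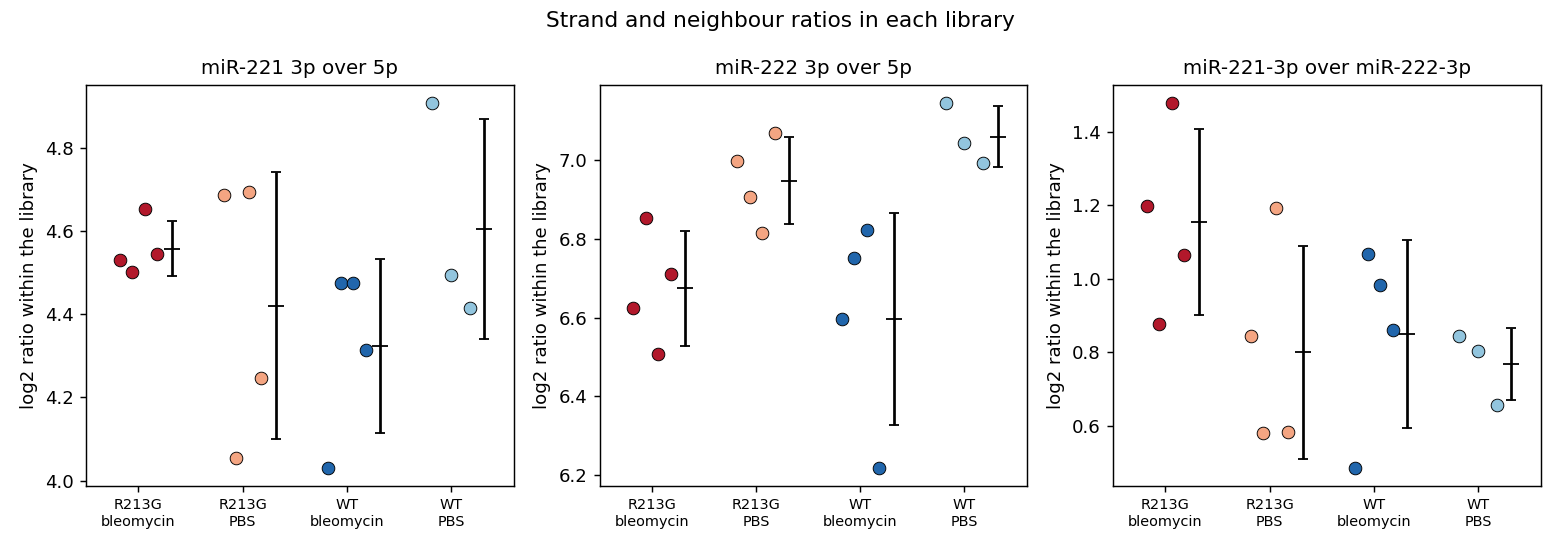
Log2 ratio of guide to passenger for each hairpin, and of guide to guide, in every library, with the group mean ± SD as a bar. The ratio of miR-222 strands is lower after bleomycin, at 6.22 to 6.85 over both genotypes, against 6.82 to 7.15 after PBS.

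R213G against WT asks whether the variant alters the cluster. After bleomycin miR-221-3p stood at 14.66 to 15.10 in R213G lungs, against 14.48 to 14.66 in WT lungs. The groups did not overlap, though the lowest R213G library and the highest WT library held 25932 and 25919 equalized counts. The log2 difference of 0.25 ± 0.13 (SE) had an interval of -0.015 to 0.52 and did not pass (limma adjusted p = 0.471). For 3.06% of tested miRNAs every R213G library lay above every WT library. The other strands overlapped between genotypes, with differences of 0.017 for miR-221-5p, -0.054 for miR-222-3p and -0.13 for miR-222-5p (limma adjusted p = 0.817 to 0.977). The sign for miR-221-5p turned with equal library medians and with quantile normalization. Among all tested miRNAs 0 passed in this comparison, while 97 had an unadjusted p under 0.05 by limma.

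After PBS the genotypes lay closer. The guide miR-221-3p averaged 14.31 ± 0.22 (SD, n = 4) in R213G lungs and 14.31 ± 0.24 (SD, n = 3) in WT lungs, with an interval of the difference from -0.29 to 0.28. For miR-222-3p the difference was -0.033, with an interval from -0.26 to 0.20. The passengers were higher in R213G by 0.18 (miR-221-5p) and 0.080 (miR-222-5p), and neither passed (limma adjusted p = 0.907 and 0.991). Again 0 miRNAs passed, while 44 had an unadjusted p under 0.05 by limma.

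The interaction compares the bleomycin difference in R213G with that in WT, and is the test of whether the genotypes responded differently. It was 0.25 ± 0.18 (SE) for miR-221-3p, -0.17 ± 0.17 for miR-221-5p, -0.021 ± 0.15 for miR-222-3p and -0.21 ± 0.24 for miR-222-5p, with limma adjusted p = 0.738 to 0.973. So the call of miR-221-3p in R213G without one in WT is not a shown difference between genotypes. No tested miRNA passed the interaction (0 of 818), while 65 had an unadjusted p under 0.05 by limma.

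By level, miR-221-3p ran highest in R213G bleomycin lungs, then in WT bleomycin lungs, then in the PBS groups. The bleomycin groups did not overlap, while their difference and that of the PBS groups did not pass. For miR-221-5p the bleomycin groups came first, within their spread of each other, and R213G PBS and then WT PBS lungs followed, with a difference between those that did not pass. For miR-222-3p and miR-222-5p the bleomycin groups also came first. The guide averaged 13.70 ± 0.07 in R213G bleomycin lungs and 13.75 ± 0.18 in WT bleomycin lungs, and the passenger 7.02 ± 0.07 in R213G and 7.16 ± 0.37 in WT (SD, n = 4 each), within their spread.

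The sample descriptions hold code numbers, and the labels do not say what they mark. The R213G libraries and the WT libraries fall in separate blocks of these numbers, so genotype and block cannot be told apart. In WT every bleomycin number lies below every PBS number, so treatment and number cannot be told apart there. The R213G numbers are consecutive, and were cut here in the middle into a lower and an upper run, each with 2 bleomycin and 2 PBS libraries. The miR-221-3p difference was 0.49 within the lower run and 0.61 within the upper run. The levels themselves were higher in the lower run, at 14.97 and 14.73 (lower and upper run) after bleomycin and at 14.49 and 14.12 after PBS. For miR-222-5p the differences were 0.51 and 0.42, for miR-222-3p 0.17 and 0.22, and for miR-221-5p 0.58 and 0.23. All 4 strands were higher after bleomycin within each run. Any such cut must give this where the groups do not overlap, so the direction is no further result.

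Of 9 other tested miRNAs reported to repress Cdkn1b or the related inhibitor Cdkn1a, 3 rose in R213G, where 22.2% of all tested miRNAs rose, and 3 in WT, where 16.4% did. None of the 9 fell (0 in either genotype), and the other 6 of each genotype missed the threshold. Against that background, 3 of 9 is not read as a result about the list. The median log2 difference of the 9 was 0.36 in R213G and 0.23 in WT, beside 0.05 for all tested miRNAs in each. In R213G miR-17-5p (0.36), miR-20a-5p (0.57) and miR-106b-5p (0.54) rose, all members of the miR-17 seed family that represses Cdkn1a. In WT miR-17-5p (0.36), miR-20b-5p (0.60) and miR-196a-5p (2.35) rose. The last is a scarce HOX-cluster miRNA with a mean level of 2.70. The abundant miR-24-3p had differences of -0.057 in R213G and -0.14 in WT, and miR-148a-3p of -0.0077 and 0.23, and neither passed. With equal library medians 2 rose in R213G and 2 in WT, and with quantile normalization 4 and 3. The 5 listed miRNAs of the miR-17 family share a seed, so they are not separate in function.

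Most listed signal-induced miRNAs had larger differences than the cluster, which was not tested. Of 8 listed as induced by NF-kB, AP-1 or CREB, 6 rose in each genotype, 1 fell (miR-146a-5p, -0.73 in R213G and -0.51 in WT) and 1 missed the threshold (miR-9-5p, 0.35 in R213G and 0.18 in WT), with a median of 1.72 in R213G and 1.72 in WT. With quantile normalization 0 fell in WT. Of all tested miRNAs 22.2% rose and 19.8% fell in R213G, and 16.4% rose and 10.3% fell in WT. The list was chosen with earlier results of these data known, so its count is no separate support. The macrophage miRNA miR-147-3p had the largest difference of the list, 3.69 in R213G and 3.09 in WT. The fibrosis-linked miR-21a-5p rose by 2.02 and 1.94, and the leukocyte miRNA miR-155-5p by 1.00 and 1.06. The 4 strands of the cluster, at 0.19 to 0.55 in R213G and 0.21 to 0.68 in WT, all lay below each of the 6 risers.

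**Figure D4:**
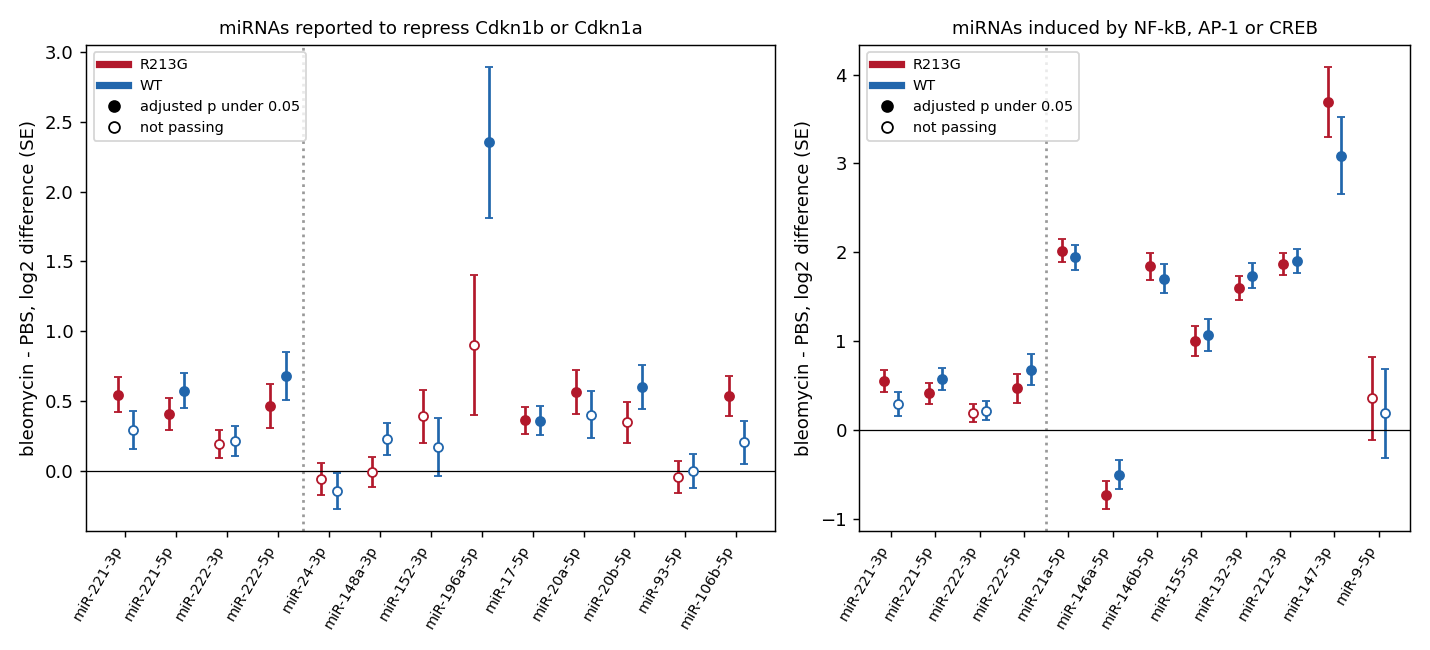
Bleomycin minus PBS log2 difference with its SE in R213G and WT lungs, for the 4 strands (left of the dotted line) beside miRNAs reported to repress Cdkn1b or Cdkn1a and miRNAs induced by NF-kB, AP-1 or CREB. Filled points passed the test. The strands lie among the first set and below the 6 risers of the second.

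In whole lung, a different mix of cells and a different amount of a miRNA per cell cannot be told apart. The endothelial, smooth muscle, leukocyte, epithelial and erythroid markers were all above 0 in every library. The marker counts stand beside the shares of all tested miRNAs on the deposited values. In R213G 22.2% rose and 19.8% fell, and in WT 16.4% rose and 10.3% fell. Of 2 endothelial markers 1 fell in R213G (miR-126a-3p, -0.41) and 0 passed in WT, where miR-126a-3p had -0.13. The other, miR-126a-5p, went the other way, with 0.15 in R213G and 0.26 in WT, and did not pass. Their summed level was 19.63 to 20.17 in R213G bleomycin lungs, 20.01 to 20.18 in R213G PBS lungs, 20.02 to 20.06 in WT bleomycin lungs and 19.75 to 20.24 in WT PBS lungs (log2). Of 4 smooth muscle markers, 3 fell in R213G and 2 in WT. Their summed level was 21.16 to 21.55 in R213G bleomycin lungs and 21.52 to 21.77 in R213G PBS lungs. In WT it was 21.27 to 21.59 after bleomycin and 21.57 to 21.81 after PBS. No endothelial or smooth muscle marker rose in either genotype, also with equal library medians or quantile normalization. With equal library medians 1 endothelial marker fell in R213G and 0 in WT, and 3 smooth muscle markers fell in R213G and 4 in WT. With quantile normalization 0 endothelial markers fell, and 2 smooth muscle markers fell in R213G and 1 in WT.

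Of 4 leukocyte markers, 1 rose and 1 fell in R213G, where with quantile normalization 2 rose and 0 fell, and 2 rose in WT. Their summed level was 17.05 to 17.33 in R213G bleomycin lungs and 17.27 to 17.44 in R213G PBS lungs. In WT it was 17.13 to 17.51 after bleomycin and 16.85 to 16.99 after PBS. Of 5 epithelial markers, 3 fell in R213G and 1 in WT, while in R213G 4 fell with equal library medians, and 1 rose and 1 fell with quantile normalization. Epithelial sums were 17.85 to 18.24 in R213G bleomycin lungs and 18.20 to 18.37 in R213G PBS lungs. In WT these sums were 17.99 to 18.29 after bleomycin and 18.21 to 18.30 after PBS. Of 3 erythroid markers, 1 fell in R213G and 2 in WT. Their sums were 14.01 to 16.17 in R213G bleomycin lungs, 14.24 to 16.07 in R213G PBS lungs, 12.94 to 13.68 in WT bleomycin lungs and 14.71 to 15.87 in WT PBS lungs. Of 3 tested striated muscle markers, 3 fell in R213G and 2 in WT, and miR-206-3p was below the filter, at 0 in 2 R213G PBS libraries. With miR-206-3p included, the striated muscle sums were 12.09 to 13.11 in R213G bleomycin lungs and 14.44 to 14.93 in R213G PBS lungs. In WT they were 13.03 to 13.87 after bleomycin and 14.02 to 16.31 after PBS. Beside these counts, 22.2% of all tested miRNAs rose and 19.8% fell in R213G, and 16.4% rose and 10.3% fell in WT. With so few markers per list, the counts are not read as changes of a cell type. The part of any of these markers in the differences of the cluster was not tested.

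The miRNAs with the most similar pattern over the 15 libraries were found by the root mean square difference of log2 values, each miRNA centred on its own mean. Nearest to miR-221-3p were miR-152-5p (0.13), miR-671-5p (0.15), let-7i-5p (0.15), miR-362-5p (0.16) and miR-500-3p (0.16), against a median of 0.50 over all other tested miRNAs. The nearest, miR-152-5p, averaged 10.99 in R213G bleomycin lungs and 10.43 in R213G PBS lungs, and 10.80 in WT bleomycin lungs and 10.56 in WT PBS lungs. Nearest to miR-222-3p were miR-27a-5p (0.10), miR-27b-5p (0.12), miR-1839-5p (0.13), miR-532-5p (0.13) and miR-191-5p (0.13), against a median of 0.44. The cluster's guides were less alike, with a difference of 0.26 between them. At that distance miR-222-3p would rank 61 among the neighbours of miR-221-3p, and miR-221-3p would rank 99 among those of miR-222-3p.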

How the data were processed

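The deposited table holds log2 values of 1424 mature miRNAs in 15 libraries, and the authors' log2 differences, p-values and q-values. Per the labels, total RNA was extracted with miRNeasy columns and sequenced on Illumina libraries. The submitters' processing notes name Bowtie2 2.3.2, SAMtools 1.9 and edgeR, with no genome build or miRBase release given. From the values, the deposited log2 values were taken as log2 of 1 plus a count that the authors equalized between libraries. No source states this, and the authors' name for the data mentions RPKM. Read depth is unknown, and no counting interval was computed. The values were tested as they are with limma 3.58.1 in R 4.3.3, fitting a mean for each of the 4 groups and letting the prior variance follow the level (intensity trend). The filter asked for more than 5 equalized counts in 3 or more libraries and kept 818 miRNAs. The test was checked on simulated data. Ratios were tested by exact permutation over libraries (Python 3.11.15). Named miRNAs were the 4 members, all listed miRNAs, other miRNAs with their seed and the 5 nearest in pattern to each guide. The members and lists were chosen with earlier results of these data known. The labels number the libraries without saying that each is a separate mouse, so p-values measure the spread between libraries, which may be technical. Alternatives covered each library, filter, scaling, pseudocount, trend, array weights, the groups compared, a replicate term and a term for the code number.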

Additional observations from a re-analysis of the deposited data

How the results depend on the processing

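Values are log2 differences unless said otherwise. Bleomycin calls that changed with scaling were miR-221-5p in R213G (0.28 at equal library medians, 0.34 by quantile normalization), miR-222-5p in R213G (0.33 and 0.36), miR-222-5p in WT (0.50 by quantile normalization), miR-221-3p in WT (0.46 by quantile normalization, then passing) and miR-222-3p averaged (0.078 and 0.14, and 0.20 without the trend). Leaving out 1 library gave 0.42 to 0.51 for miR-222-5p in R213G and 0.16 to 0.23 for miR-222-3p averaged, with calls lost in 5 and 7 fits. Of differences that never passed, some changed sign. R213G minus WT after bleomycin was -0.00063 and -0.076 for miR-221-5p at equal medians and by quantile normalization, -0.034 to 0.073 without single libraries, and -0.11 to 0.026 for miR-222-3p. After PBS it was -0.13 to 0.094 for miR-221-3p, 0.028 with the replicate block, and -0.11 to 0.025 for miR-222-3p. The miR-222-3p interaction was -0.079 to 0.059, and 0.066 with array weights. The averaged log2 ratio of miR-221 strands was -0.13 to 0.0033, and that of the guides 0.16 to 0.28, passing unadjusted by the exact permutation test without WT bleomycin replicate 1 or R213G PBS replicate 3 (0.28 each). Without the 2 libraries farthest from the median, a choice added after seeing the data, r turned to -0.63 between the miR-221 strands after bleomycin and to -0.39 between the guides after PBS. In R213G against WT after bleomycin 2 miRNAs passed with array weights, and 0 to 1 without single libraries. The causes were not tested. The replicate numbers were not taken as pairing the libraries, since the labels name no pairing and not every same-numbered pair correlated over 0.1. That rule cannot exclude a pairing. Deviations of same-numbered libraries correlated from -0.14 to 0.26 (median 0.065), over 0.1 in 9 of 21 pairs, and those of other-numbered libraries over 0.1 in 11 of 63 (median -0.019), and 6 of 15 libraries were closest to a library of their own number. In R213G same-numbered libraries lie 2 code numbers apart. With the block the calls numbered 348 in R213G and 215 in WT, in place of 344 and 218, and no other member's sign or call changed. Tests for counts were not run, since the table holds none.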

Other observations

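Whether the strands vary together from library to library was looked at within the 8 bleomycin and the 7 PBS libraries, since treatment separates the strands, and 6 relations were computed. Each set pools R213G and WT libraries, and the permutation did not keep the genotypes apart. So r mixes any genotype difference with variation between libraries, and miR-221-3p did not overlap between genotypes after bleomycin. The guides miR-221-3p and miR-222-3p had r = -0.63 (exact permutation p = 0.103, adjusted p = 0.314) and rho = -0.57 (exact permutation p = 0.151, adjusted p = 0.720) after bleomycin. Without the 2 libraries farthest from the median of miR-221-3p, r was -0.64. After PBS they had r = 0.23 (exact permutation p = 0.589, adjusted p = 0.706) and rho = 0.21 (exact permutation p = 0.662, adjusted p = 0.798), and r = -0.39 without those 2. The miR-221 strands had r = 0.29 (exact permutation p = 0.500, adjusted p = 0.706) and rho = 0.19 (exact permutation p = 0.665, adjusted p = 0.798) after bleomycin, and r = -0.63 without the 2 libraries. After PBS they had r = -0.15 (exact permutation p = 0.772, adjusted p = 0.772) and rho = -0.04 (exact permutation p = 0.963, adjusted p = 0.963), and r = -0.85 without 2. The miR-222 strands had r = 0.62 (exact permutation p = 0.105, adjusted p = 0.314) and rho = 0.38 (exact permutation p = 0.360, adjusted p = 0.720) after bleomycin, and r = 0.33 without 2. After PBS they had r = 0.54 (exact permutation p = 0.219, adjusted p = 0.439) and rho = 0.43 (exact permutation p = 0.354, adjusted p = 0.720), and r = 0.56 without 2. None of the 6 relations passed, and in 2 of the 6 the sign of r turned without 2 libraries.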
